A study of Mus musculus with 2 samples.

Results

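Kinesins are motor proteins that walk along microtubules, and the genes of this superfamily were followed here through the cells of the mouse forebrain at embryonic day 18.5. The members are all genes whose symbol starts with Kif or Kifc followed by a digit, which are 44 of the 32285 genes counted. The data are 2 droplet libraries of single cells, of which 1 carries the label wild type and the other the label Cyfip2 knockout, each made from a pool of 2 forebrains of that stage, dissociated with papain. The sources used here give neither the mouse strain nor the Cyfip2 allele, and which embryos gave which cells of a pool is not known. Because there is 1 library of each label, no difference between them could be tested, and every interval below covers counting error only. In each pair of values the first is from the wild-type library and the second from the knockout-labelled one.

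A kinesin heavy chain joins an ATP-burning motor head to a tail that binds cargo, adaptors or other subunits, and most family members walk toward the plus ends of microtubules, which point to the tips of axons. Conventional kinesin (Kif5a, Kif5b and Kif5c), the vesicle motors of the Kif1 and Kif13 genes and heterotrimeric kinesin (Kif3a with Kif3b or Kif3c) haul organelles, synaptic vesicle precursors and membrane proteins. Another set builds and pulls the mitotic spindle and cuts the daughter cells apart, and further members shorten, cap or otherwise tune microtubules, as Kif2a, Kif21a and Kif21b do. By these roles the 44 genes fall into 15 transport motors, 13 motors of cell division, 6 genes of microtubule dynamics and signalling, 8 of cilia and other roles, and 2 that are no motors of their own. The last are Kif1bp, a binding partner of kinesins that carries no motor, and Kif16bos, an antisense transcript at Kif16b.

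The libraries held 123978461 and 150828048 unique molecular identifiers (UMIs, each a tag that counts 1 captured transcript), and 8426 and 11533 cells were kept with medians of 9567 and 7783 UMIs per cell. Cells were grouped into 36 clusters without any Kif gene, and clusters were named by likeness to fixed marker genes, so each name below, such as radial glia, means radial glia-like. Of the 36 clusters, 5 stayed unnamed and are called by number. Cyfip2 itself was counted at 84.9 and 84.4 CPM (counts scaled to a common total of 1000000 per class) over all cells and at 31.3 and 66.1 CPM in dividing progenitors. The transcript therefore did not mark the knockout-labelled library, and a tag at the 3' end outside a deleted part would not show the deletion, so that library is named by its label throughout. Xist was at 1567 and 1676 CPM and at most 10 UMIs of a Y-linked gene were found in either library, a fact that bears on the X-linked member Kif4. The libraries share 32 cell barcodes, where 17.2 would be shared by chance.

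Kinesin transcripts made up 2303 and 2201 CPM of all cells, about the same in both libraries. Transport motors supplied 60.6 and 60.2% of these UMIs, the genes of microtubule dynamics 27.6 and 27.9%, and the division motors 9.11 and 9.13%. The summed level was highest in dividing progenitors, at 3327 and 3164 CPM, where division motors took 59.8 and 60.7% of it. Cajal-Retzius cells, the Reelin-secreting neurons under the brain surface, came next among the named classes at 2852 and 2745 CPM, of which 82.5 and 81.6% came from transport motors. Excitatory neurons held 2377 and 2300 CPM, GABAergic neurons 2019 and 1992 CPM, and nondividing progenitors (radial glia and intermediate progenitors) 1862 and 1781 CPM. Microglia and macrophages held least, at 425 and 612 CPM and at 542 and 605 CPM. For Kif12 and Kif2b 0 UMIs were found in either library, which allows levels of up to 0.0309 and 0.0274 CPM at a floor of 3 counts.

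**Figure D1:**
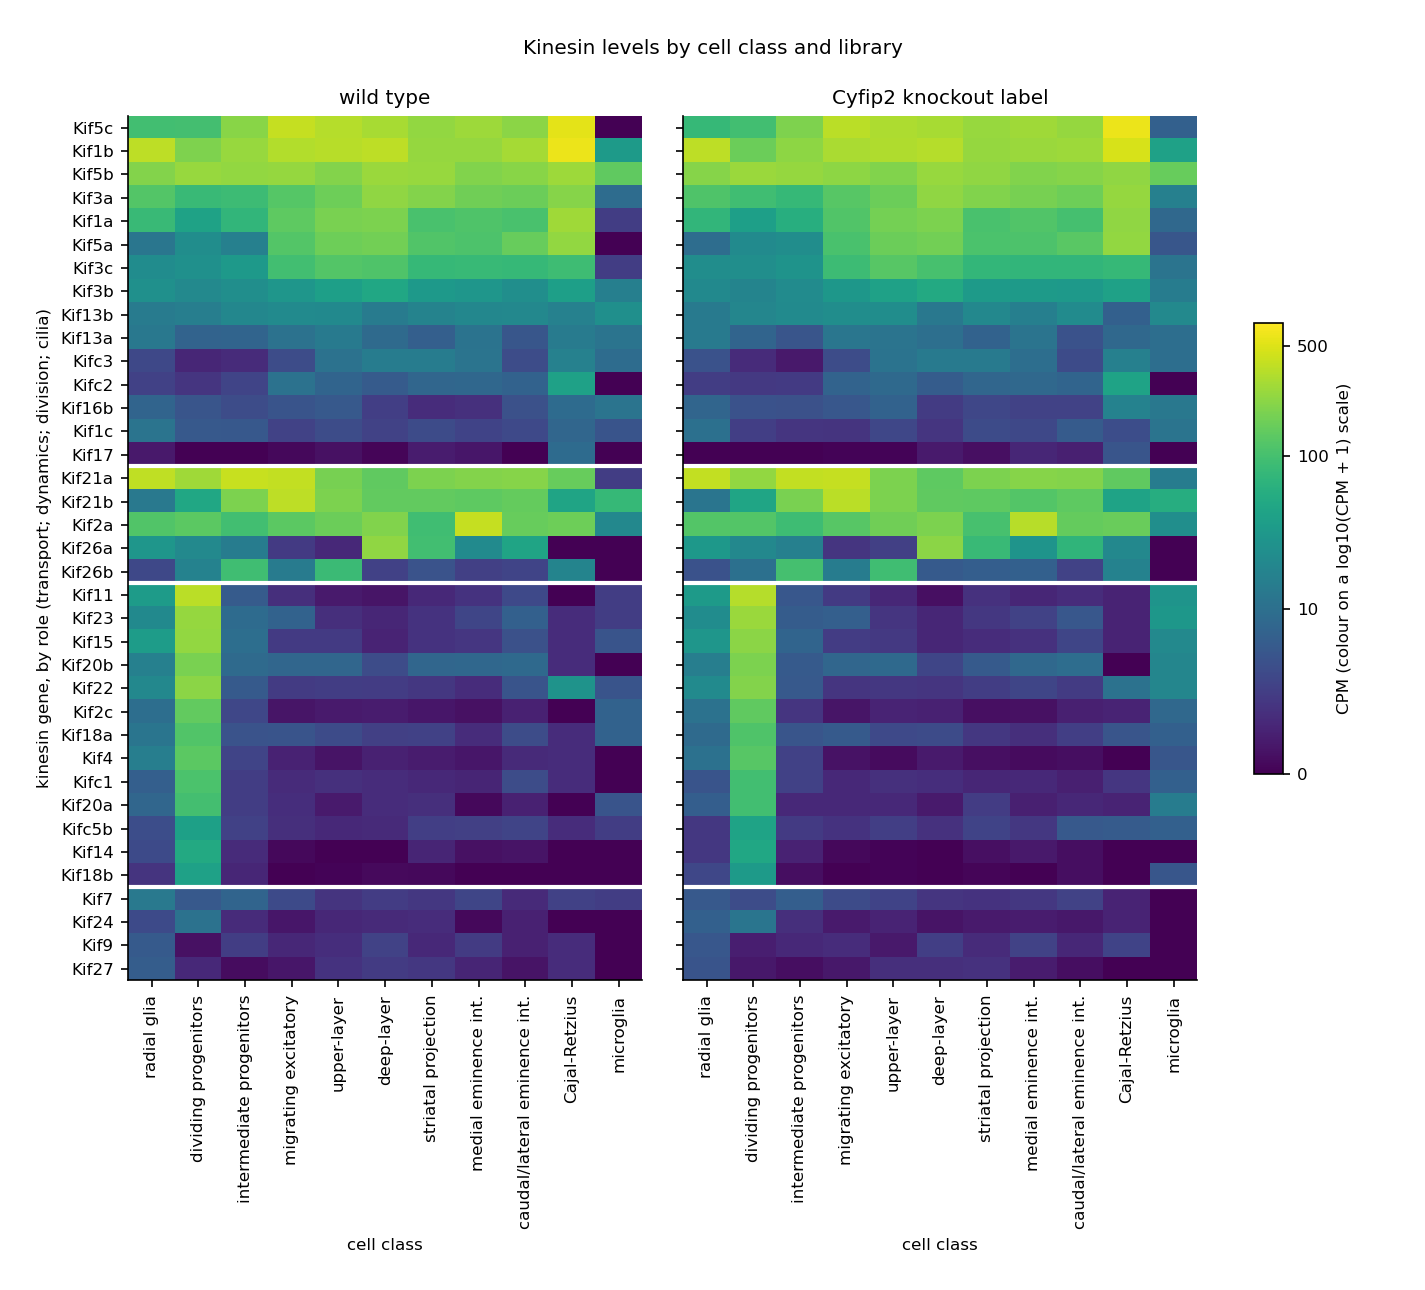
Level of the 37 kinesin genes that reach 5 CPM in a class shown (rows, by role, with white lines between roles) in 11 cell classes (columns), as colour on a log10(CPM + 1) scale, for the wild-type (left) and the knockout-labelled library (right). The division motors are bright in dividing progenitors, where Kif11 reaches 354 and 338 CPM, while Kif5a is dim in radial glia at 12.2 and 9.43 CPM.

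All levels are CPM of 3' tags within a class, not divided by transcript length, so that a level can be followed across classes for 1 gene, and levels of different genes are compared only as shares within a family on that scale. Fewer cells of a type and less RNA in each cell cannot be told apart in a summed level, but CPM divides by the RNA captured from the same cells. A gene counts as measured in a comparison with at least 20 CPM in either of its sides and at least 100 UMIs over both. It is called higher or lower at 1.5-fold or more with a 95% Poisson interval of the ratio that leaves out 1, which sets a size and tests nothing.

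Most of the transport motors measured were higher in excitatory neurons than in nondividing progenitors. Among 8 of the 15 that were measured, 5 were called higher in the wild-type library and 6 in the knockout-labelled one, and 0 were called lower. Over all genes measured, 22.8 and 22.9% were called higher in this comparison and 23.8 and 22.7% lower. The median log2 ratio of the 8 was 0.91 and 1.02, beside -0.05 and -0.02 over all genes. The smallest ratios were those of Kif1b, at 0.11 and 0.10, and Kif5b, at 0.05 and -0.05.

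Kif5a, the heavy chain of conventional kinesin that is restricted to neurons, gave the widest contrast among the transport motors. It stood at 14.3 and 17.5 CPM in nondividing progenitors and at 147 and 140 CPM in excitatory neurons, which is 10.3-fold and 8.0-fold higher (log2 3.36, 95% interval 3.09 to 3.65, and 3.00, interval 2.73 to 3.29). Along the cortical lineage its level was 12.2 and 9.43 CPM in radial glia, 16.2 and 23.6 CPM in intermediate progenitors, 120 and 107 CPM in migrating excitatory neurons, 165 and 160 CPM in upper-layer neurons and 174 CPM in deep-layer neurons of both libraries. Each step from intermediate progenitors to migrating neurons and on to layered neurons was upward in both libraries. The upper and deep layers differed little from each other. Cajal-Retzius cells were above all of these at 244 and 243 CPM. Droplets of under 100 UMIs, which hold mostly free RNA, had Kif5a at 119 and 121 CPM. The part of free RNA in the low Kif5a levels of progenitors, and so in these folds, was not tested.

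Kif5c, a heavy chain enriched in neurons, was already counted at 96.3 and 80.4 CPM in radial glia and at 220 and 197 CPM in intermediate progenitors. It reached 396 and 355 CPM in migrating neurons and was at 333 and 312 CPM in upper-layer and 299 and 293 CPM in deep-layer neurons, so it was higher in migrating than in layered neurons in both libraries. Its highest levels were 538 and 585 CPM, in Cajal-Retzius cells, and 511 and 456 CPM in cluster 15, an unnamed cluster led by Cck, Calb2 and Lhx9. Kif5b, the heavy chain of all tissues, was flat by comparison. Over the 15 classes with at least 50 cells in each library it ranged from 128 to 276 CPM in the wild-type and from 138 to 258 CPM in the knockout-labelled library, with the lowest value in both from cluster 18, whose cells are shallow.

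The shares of the 3 heavy chains turned over along the lineage. Kif5b gave 65.6% (95% binomial interval 62.7 to 68.4) and 70.4% (67.1 to 73.5) of Kif5 UMIs in radial glia and 67.2 and 68.8% in dividing progenitors, against 50.8 and 52.7% in intermediate progenitors and 32.1 and 33.0% in migrating neurons. Kif5c held 30.5 and 26.5% in radial glia, 45.9 and 42.3% in intermediate progenitors and 52.0 and 51.5% in migrating neurons. Kif5a held 3.86 and 3.11% in radial glia, 15.8 and 15.5% in migrating and 23.4 and 23.9% in upper-layer neurons. Shares within a family do not depend on the library total, and in excitatory neurons as a whole Kif5c held 48.1% (47.6 to 48.6) and 48.5% (48.0 to 49.0), Kif5b 31.9 and 31.7% and Kif5a 20.0 and 19.8%.

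**Figure D2:**
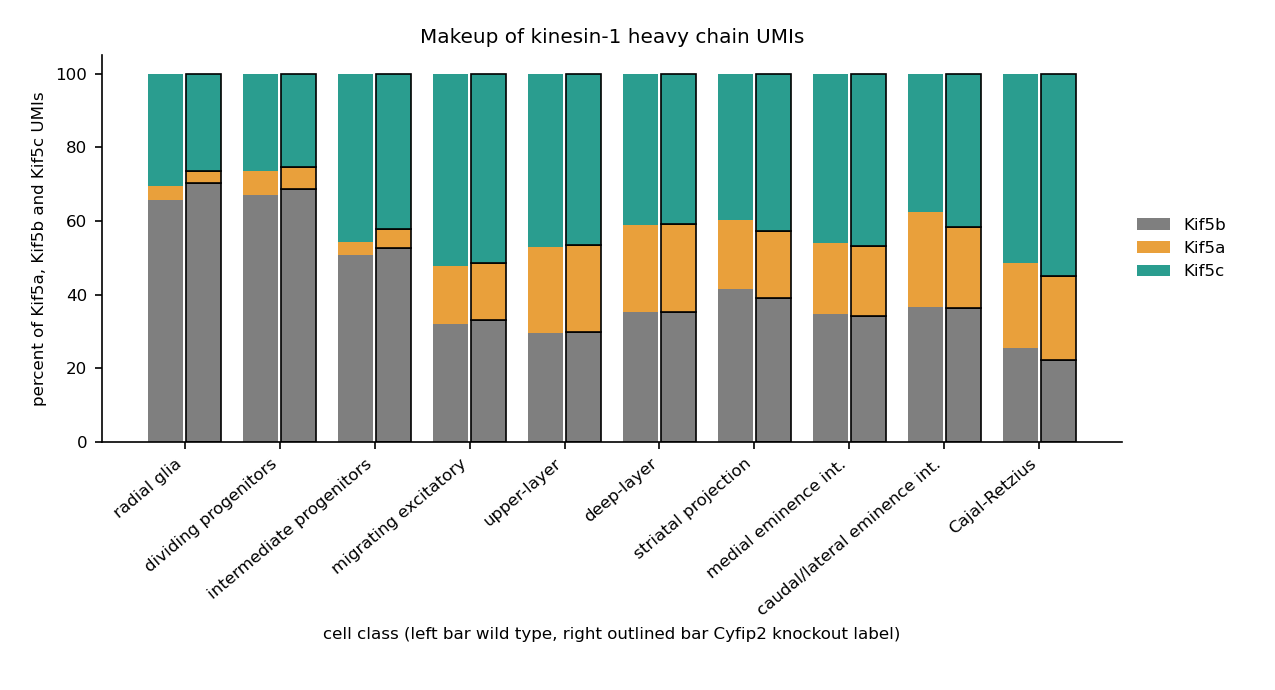
Share of Kif5a, Kif5b and Kif5c among Kif5 UMIs (percent) as stacked bars in cell classes, with the wild-type library on the left and the knockout-labelled one on the right, outlined. Kif5b leads in radial glia at 65.6 and 70.4%, and Kif5c leads in migrating excitatory neurons at 52.0 and 51.5%.

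The Kif1 motors carry synaptic vesicle precursors, and Kif1b in addition mitochondria. Kif1a, the neuron-enriched member, was at 83.3 and 73.2 CPM in radial glia, 137 and 118 CPM in migrating neurons and 192 and 190 CPM in deep-layer neurons. Kif1b was near level between radial glia (363 CPM in both libraries) and deep-layer neurons (365 and 339 CPM), and highest in Cajal-Retzius cells at 572 and 475 CPM. Kif1a thus held 18.2 and 16.4% of Kif1 UMIs in radial glia and 33.6 and 33.7% in excitatory neurons. Kif1c, the member of the family made in many tissues, was at 11.3 and 10.2 CPM in radial glia and 2.58 and 2.24 CPM in excitatory neurons. It stood at 67.7 and 59.9 CPM in endothelial cells, which rest on 6 and 42 cells.

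Heterotrimeric kinesin pairs Kif3a with Kif3b or Kif3c, and with Kif3b it also serves the cilium. Kif3a was at 120 and 114 CPM in radial glia, 165 and 158 CPM in upper-layer and 236 and 234 CPM in deep-layer neurons, the highest of the 15 classes with at least 50 cells in each library. The fewer Cajal-Retzius cells were at 212 and 245 CPM. Kif3c, found mainly in neurons, was at 23.5 and 23.8 CPM in radial glia against 121 and 126 CPM in upper-layer neurons. Its share of Kif3 UMIs went from 13.9 and 14.9% in radial glia to 38.4 and 36.1% in migrating and 37.1 and 38.6% in upper-layer neurons. Kif3b kept 12.1 and 12.8% in excitatory neurons, at 37.6 and 38.8 CPM, and its ratio of excitatory neurons to nondividing progenitors was under the 1.5-fold limit in the wild-type library (log2 0.57) and over it in the other (0.82).

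The remaining 6 transport motors, beside Kif1c, were under 20 CPM over all cells. Kif13b, which binds membrane cargo, was at 14.2 and 13.6 CPM in radial glia, 22.1 and 24 CPM in migrating neurons and 14.2 and 12.6 CPM in deep-layer neurons. Its relative Kif13a was at 87.6 and 154 CPM in oligodendrocyte lineage cells, from 12 and 19 UMIs in 10 and 16 cells, and at 11.4 and 10.8 CPM in excitatory neurons. Of the C-terminal motors, which walk toward minus ends, Kifc2 was highest in Cajal-Retzius cells at 41.1 and 43.9 CPM against 7.35 and 6.92 CPM in excitatory neurons. Kifc3 was at 14.6 and 13.5 CPM in deep-layer and 14.6 and 13.5 CPM in striatal projection neurons. Kif17, the motor of NMDA receptor vesicles in dendrites, had 8.99 and 4.57 CPM in Cajal-Retzius cells and under 1 CPM over all cells. Kif16b, a motor of early endosomes, stood at 4.45 and 4.6 CPM over all cells. Its antisense transcript Kif16bos had 7 UMIs in the wild-type library and 0.0720 and 0.0730 CPM. The strand used in counting is not given in the sources. In the gene annotation read here the pair does not overlap, with Kif16b reaching up to base 142901531 of its chromosome and Kif16bos starting at base 142902965.

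Among the genes of microtubule dynamics and signalling, Kif26a, Kif26b and Kif21b differed most from one cell class to the next, while Kif21a (3.97-fold and 4.33-fold over the 15 classes) and Kif2a (4.28-fold and 4.82-fold) spanned less than Kif5a did (14.3-fold and 18.4-fold). Kif21a and Kif21b, relatives that slow microtubule growth at the plus end, differed in opposite directions between progenitors and neurons. Kif21a was at 390 and 381 CPM in nondividing progenitors and at 222 and 230 CPM in excitatory neurons (log2 ratio -0.81 and -0.73), and was called lower in both libraries. Kif21b was called higher, at 106 and 112 CPM against 214 and 208 CPM (log2 1.02 and 0.89).

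Within the lineage the order was finer. Kif21b was nearly missing from radial glia at 13 and 11.7 CPM, was at 189 and 188 CPM in intermediate progenitors and at 365 and 356 CPM in migrating neurons, and at 191 and 192 CPM in upper-layer and 143 and 142 CPM in deep-layer neurons. Its level was thus highest in migrating neurons, 28-fold and 30.4-fold above radial glia, the lowest of those 15 classes. In droplets of under 100 UMIs, which hold mostly free RNA, Kif21b was at 190 and 193 CPM. The part of free RNA in its radial glia level was not tested. Kif21a was as high in migrating neurons (381 and 396 CPM) as in radial glia (376 and 382 CPM) and intermediate progenitors (403 and 380 CPM), and lower in upper-layer (184 and 193 CPM) and deep-layer neurons (142 and 136 CPM). The Kif21b share of the pair was 3.35% (interval 2.46 to 4.44) and 2.97% (2.03 to 4.19) in radial glia, 32.0 and 33.1% in intermediate progenitors and 51.0 and 49.8% in upper-layer neurons. Kif21b was also counted in microglia, at 79.6 and 58.2 CPM, where Kif5c had 0 UMIs in the wild-type and 4 in the knockout-labelled library.

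Kif2a, which pulls tubulin off microtubule ends and prunes axon branches, set the interneurons of the medial ganglionic eminence apart. It was at 388 and 347 CPM there, at 203 and 192 CPM in deep-layer neurons and at 93.0 and 102 CPM in striatal projection neurons. In cluster 2 of that class, led by Nxph1, Lhx6 and Maf, it was at 460 and 455 CPM. In cluster 17, led by Sst, Lhx8 and Zic genes and also named medial eminence interneurons, Kif2a was at 135 and 184 CPM. Cluster 17 held 135 and 378 cells, so it may follow the library rather than a cell type, and the class value of the knockout-labelled library contains more of it. Kif2c, its relative of the dividing cell, made up 52.0 and 53.9% of the UMIs of Kif2a and Kif2c in dividing progenitors.

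Kif26a and Kif26b are unusual members that are thought to lack motor activity and to act in signalling. They split the excitatory neurons by layer. Kif26a was at 236 and 222 CPM in deep-layer neurons and at 1.14 and 2.43 CPM in upper-layer neurons, and Kif26b at 2.57 and 5.45 CPM in deep-layer and 85.2 and 92.4 CPM in upper-layer neurons. Both deep-layer clusters had Kif26a, at 223 and 210 CPM in cluster 10 (led by Adcyap1, Nefl and Fezf2) and at 277 and 262 CPM in cluster 21 (led by Hs3st4, Nxph3 and Tle4). Kif26a stood among the 10 leading genes of cluster 10, though no Kif gene was used in clustering. Its lowest class was the upper-layer neurons in the wild-type library and migrating neurons, at 1.74 CPM, in the knockout-labelled one. From that class to the deep layers it differed 206-fold and 128-fold, over the 15 classes with at least 50 cells in each library. That is the widest span among members outside division whose lowest class held more than 3 UMIs in both libraries. In droplets of under 100 UMIs Kif26a was at 32.9 and 31.4 CPM, and the part of free RNA in its lowest levels, and so in this span, was not tested.

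The same 2 genes were also divided among other classes. Kif26b was at 92.7 and 99.8 CPM in intermediate progenitors, at 3.12 and 4.15 CPM in radial glia and at 14.4 and 14.6 CPM in migrating neurons. It was thus high in intermediate progenitors and in upper layers, and low in radial glia and in migrating neurons. It was at 88.7 and 82.2 CPM in cluster 4, excitatory neurons led by Cbln2 and Ntf3, and within the upper layers at 65.6 and 64.4 CPM in cluster 0 and 108 and 134 CPM in cluster 9. Kif26a was at 30.0 and 32.1 CPM in radial glia and 95.4 and 83.8 CPM in striatal projection neurons, and at 136 and 102 CPM in endothelial cells, from 8 and 90 UMIs. The Kif26a share of the pair was 98.9% (98.4 to 99.3) and 97.6% (96.9 to 98.2) in deep-layer neurons, 1.32 and 2.56% in upper-layer neurons, 90.6 and 88.5% in radial glia and 13.7 and 14.1% in intermediate progenitors.

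**Figure D3:**
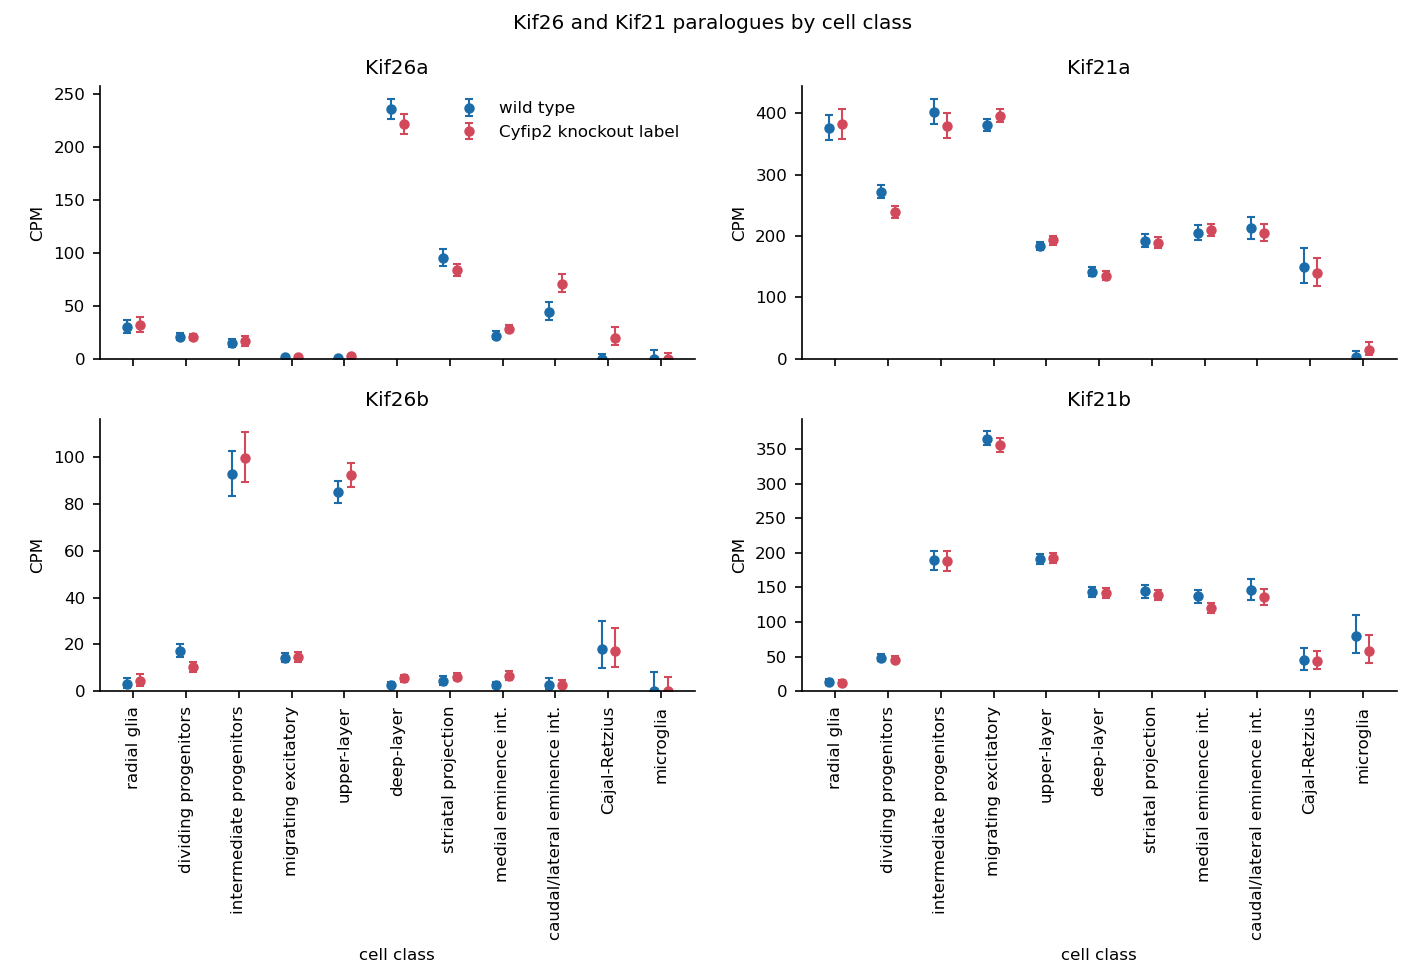
Level in CPM (linear axis from 0, its own scale for each gene) of Kif26a, Kif26b, Kif21a and Kif21b in 11 cell classes, with a point for each library and bars for 95% Poisson intervals. Kif26a is at 236 and 222 CPM in deep-layer and 1.14 and 2.43 CPM in upper-layer neurons, the reverse of Kif26b at 2.57 and 5.45 and 85.2 and 92.4 CPM.

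The 13 motors of division were each higher in dividing progenitors than in excitatory neurons, 13 of 13 called in both libraries, where 23.1 and 21.7% of all genes measured were called higher. Their median log2 ratio was 6.69 and 6.97, beside -0.04 and -0.06 over all genes. With free RNA taken as 5% of each class and subtracted, the median was 7.67 and 8.01. A subtraction larger than the count left no count, so motors such as Kif14 in excitatory neurons entered this median with an unbounded ratio. The dividing class was named from other division genes such as Mki67 and Top2a, so that this direction follows from how the class was made, and the levels are given as a description. Kif11, which slides spindle poles apart, was at 354 and 338 CPM in dividing progenitors, 35.7 and 34.7 CPM in radial glia and 0.921 and 1.12 CPM in excitatory neurons. Kif23, the motor of the central spindle that organises the final cut, was at 248 and 258 CPM, and Kif15, which helps Kif11 to keep the spindle bipolar, at 240 and 224 CPM.

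The other division motors were counted in dividing progenitors as well. Kif22, a chromosome-arm motor, was at 222 and 208 CPM in dividing progenitors. Kif20b was at 186 and 192 CPM and Kif2c, which corrects wrong attachments at the centromere, at 146 and 142 CPM. Kif4 on the X chromosome, which compacts chromosomes and trims the midzone, was at 133 and 126 CPM, and Kif18a, which damps chromosome movements at the plate, at 118 and 114 CPM. Kif20a was at 97.7 and 96.1 CPM, Kif14 at 52.9 and 48.3 CPM and Kif18b at 41.6 and 34.9 CPM. The minus-end motors Kifc1 and Kifc5b are near-identical copies, and their 109 and 94.3 CPM and 40.7 and 44.3 CPM may exchange reads.

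Low counts of some division motors were also found outside the dividing class. In droplets of under 100 UMIs, which hold mostly free RNA, Kif20b was at 13.2 and 15.8 CPM and Kif23 at 19.4 and 24.7 CPM, and the part of free RNA and of missed doublets in the low levels that follow was not tested. Kif20b was at 6.30 and 6.37 CPM in excitatory neurons. Kif23 was at 6.80 and 6.28 CPM in migrating neurons. Kif18b and Kif14 had 3 UMIs each in the excitatory neurons of the wild-type library, so their ratios of 768-fold and 977-fold are imprecise (log2 intervals 8.03 to 11.9 and 8.38 to 12.2).

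Within the dividing class the motors spread over the cell cycle. Cells were put in 3 equal ranges of a score, the share of G2M-phase UMIs among those of 42 S-phase and 48 G2M genes without any Kif, which makes a range and not a cell type. Each range held 163 cells of the wild-type and 220 or 221 cells of the knockout-labelled library, and 100 and 149 cells lay near a boundary. From the S-phase side to the G2M side, 12 of the 13 motors had an interval above 0 in each library, with a median log2 ratio of 1.33 and 1.5. Over all genes measured, 25.3 and 24.3% had one.

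The size of that step differed from motor to motor. Kif14, which acts at the closing furrow, went from 21.2 to 93.0 CPM (4.39-fold) and from 16.8 to 83.4 CPM (4.97-fold), and Kif2c from 60.2 to 232 CPM (3.86-fold) and from 47.5 to 239 CPM (5.03-fold). Kif11 moved less, from 238 to 478 CPM (2.01-fold) and from 237 to 434 CPM (1.83-fold). Kif15 was the exception, at 223 and 241 CPM on the 2 sides in the wild-type library (1.08-fold, log2 interval -0.05 to 0.27) and at 232 and 190 CPM in the knockout-labelled one (0.817-fold, interval -0.45 to -0.13). Among the transport motors Kif1b also differed, from 131 to 299 CPM (2.28-fold) and from 113 to 230 CPM (2.03-fold), and Kif3a by 2.34-fold and 1.64-fold.

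**Figure D4:**
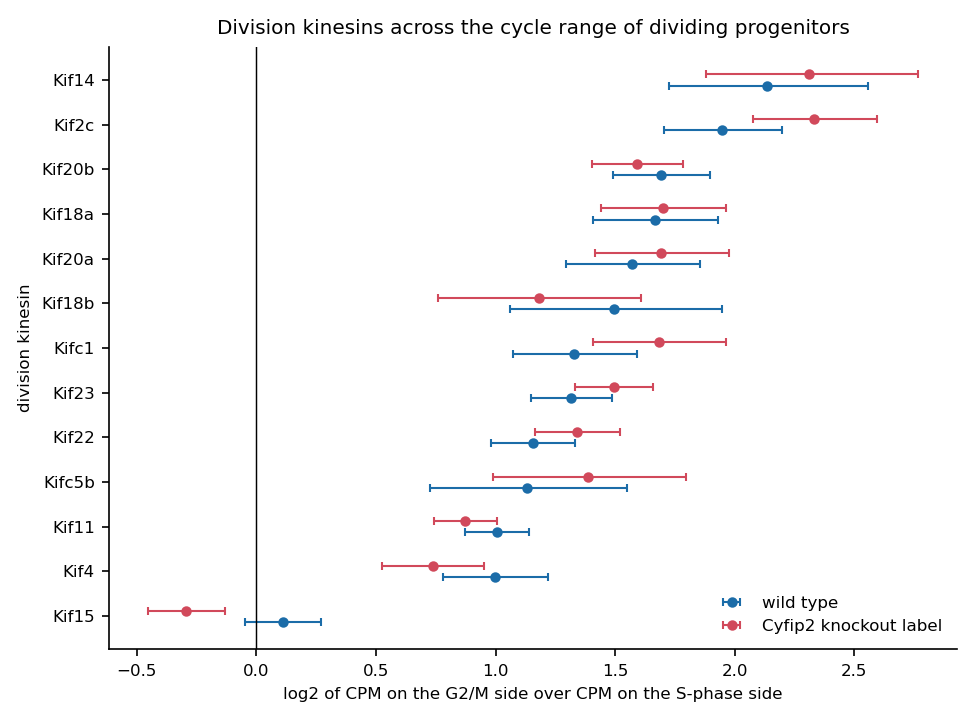
Log2 of CPM on the G2M side over CPM on the S-phase side of the cell cycle score for the 13 division motors (rows) in dividing progenitors, with a point for each library and bars for 95% Poisson intervals. Of the motors, 12 lie right of 0 in both libraries, while Kif15 has an interval of -0.05 to 0.27 in the wild-type and -0.45 to -0.13 in the knockout-labelled library.

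Each of the 13 division motors was highest in dividing progenitors among the 15 classes, and the promoters of 12 of them were read. The windows run from 100 bases before the RefSeq start to 30 bases from it on the gene's strand, in the build GRCm38.p6. Entries of the RefSeq promoter table were used for 34 of the 44 members. None was used for Kif5a, Kif5b, Kif13b, Kif19a, Kif20a, Kif21b, Kif28, Kif1bp, Kifc2 and Kifc3. The letters searched, on both strands, were TTTGAA, the cell cycle genes homology region through which division genes are known to be held off outside the cell cycle, and CCAAT, the box of the factor NF-Y. Over the table's full promoter of 250 bases before to 50 after the start, TTTGAA was in 11 of 12 division motors (91.7%) and in 17.9% of all 32851 promoters. CCAAT was in 8 of 12 (66.7%) against 37.4%, and both were in 8 of 12 (66.7%) against 7.0%. Of the 12 promoters of transport motors, 1 held TTTGAA (8.3%) and 4 held CCAAT (33.3%). The promoters of Kif14, Kif2c and Kif4, each with TTTGAA, lie wholly inside the annotated gene. Those of the near-identical copies Kifc1 and Kifc5b were counted separately. A match is a run of letters and not a shown site.

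The windows that follow show 8 division motors with TTTGAA near the start, 1 division motor without either motif (Kif18a) and, for contrast, a transport motor (Kif5c) and the deep-layer gene Kif26a. Capitals mark TTTGAA or its reverse complement TTCAAA, and CCAAT or its reverse complement ATTGG. They lie, in this order, at chr19:37376282-37376411 (plus strand), chr7:127042391-127042520 (minus), chr9:61946770-61946899 (minus), chr19:34922258-34922387 (plus), chr9:122950981-122951110 (plus), chr11:102925095-102925224 (minus), chrX:100625965-100626094 (plus), chr17:33890604-33890733 (minus), chr2:109280638-109280767 (plus), chr2:49619186-49619315 (plus) and chr12:112146108-112146237 (plus).
Kif11: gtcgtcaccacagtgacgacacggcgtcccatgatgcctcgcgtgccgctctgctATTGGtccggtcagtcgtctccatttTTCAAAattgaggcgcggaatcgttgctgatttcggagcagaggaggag
Kif22: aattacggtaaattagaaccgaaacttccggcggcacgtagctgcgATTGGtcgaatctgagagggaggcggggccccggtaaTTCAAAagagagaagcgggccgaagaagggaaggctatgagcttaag
Kif23: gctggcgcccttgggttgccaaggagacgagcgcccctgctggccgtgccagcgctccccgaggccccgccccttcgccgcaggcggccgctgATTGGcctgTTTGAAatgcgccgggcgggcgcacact
Kif20b: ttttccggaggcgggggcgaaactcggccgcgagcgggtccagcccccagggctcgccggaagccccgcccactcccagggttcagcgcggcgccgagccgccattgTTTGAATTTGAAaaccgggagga
Kif15: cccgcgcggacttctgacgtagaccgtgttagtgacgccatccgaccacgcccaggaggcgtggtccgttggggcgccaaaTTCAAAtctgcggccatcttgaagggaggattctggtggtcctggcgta
Kif18b: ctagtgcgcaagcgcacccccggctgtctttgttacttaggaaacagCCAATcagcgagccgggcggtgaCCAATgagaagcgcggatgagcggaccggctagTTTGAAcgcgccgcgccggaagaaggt
Kif4: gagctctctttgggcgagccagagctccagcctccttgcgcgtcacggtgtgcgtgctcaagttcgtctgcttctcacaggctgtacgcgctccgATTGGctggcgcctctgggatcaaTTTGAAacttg
Kifc1: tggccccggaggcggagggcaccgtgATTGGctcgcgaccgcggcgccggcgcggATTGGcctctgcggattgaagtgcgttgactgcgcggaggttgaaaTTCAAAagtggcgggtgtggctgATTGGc
Kif18a: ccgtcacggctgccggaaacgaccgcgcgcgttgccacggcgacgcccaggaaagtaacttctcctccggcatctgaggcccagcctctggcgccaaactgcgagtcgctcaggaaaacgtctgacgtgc
Kif5c: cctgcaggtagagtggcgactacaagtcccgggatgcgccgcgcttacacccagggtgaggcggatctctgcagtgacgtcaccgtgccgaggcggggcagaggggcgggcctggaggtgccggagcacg
Kif26a: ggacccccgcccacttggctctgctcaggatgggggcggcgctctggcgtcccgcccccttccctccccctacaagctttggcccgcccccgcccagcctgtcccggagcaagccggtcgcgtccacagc

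In Kif11 the first base of the CCAAT match lies 45 bases before the start and that of TTTGAA 19 bases before it. Kif22 shares this arrangement, with CCAAT 54 and TTTGAA 17 bases before the start. In Kif20b TTTGAA occurs in 2 adjoining copies and no CCAAT is in the window, and in Kif18b there are 2 CCAAT copies and 1 of TTTGAA. Kif15, whose level did not follow the G2M side of the cycle, has TTTGAA 19 bases before its start and no CCAAT. Kif18a, which did follow it (3.17-fold and 3.25-fold), has neither motif in the full promoter. The promoters of Kifc1 and Kifc5b match in 239 of 272 aligned bases (87.9%), with a shared run of 68 bases.

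The genes of cilia and other roles were low, and 0 of the 8 reached 20 CPM over all cells. Kif7, which sits at the cilium tip and regulates Hedgehog signalling, was highest in radial glia of the wild-type library at 13 CPM and at 5.28 CPM in the knockout-labelled one, from few UMIs. Kif9, Kif27 and Kif6, known from motile cilia, were at 22.4 and 90.7, 42.6 and 69.4, and 11.2 and 26.7 CPM in choroid plexus cells, which rest on 16 and 12 cells. Kif27 and Kif9 were under 2 CPM in excitatory neurons. Kif24, which acts at the centriole, was highest in dividing progenitors at 10.8 and 11.9 CPM. Kif19a and Kif28 stayed under 2 CPM in every class with at least 50 cells in each library. The partner gene Kif1bp was at 57.2 and 54.3 CPM in excitatory neurons and 45.9 and 43.8 CPM in dividing progenitors.

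Shares of cells with a UMI gave the same pattern once every cell was thinned to 1000 UMIs. Kif5c had a UMI in 27.4 and 28.2% of excitatory neurons (87.6 and 84.5% before thinning, at medians of 10416 and 8534 UMIs) and in 0 of 24 and 2.44% of 41 microglia (0 and 9.76% before thinning, at medians of 16092 and 13790 UMIs). The count of 0 of 24 allows a share of up to 12.5% of cells with a UMI. Kif11 had one in 26.6 and 30.7% of dividing progenitors and in 0.200 and 0.194% of excitatory neurons. Kif26a had one in 22.5 and 22.6% of deep-layer neurons (89.0 and 87.5% before thinning) against 0.169 and 0.219% of upper-layer neurons. Kif26b had one in 7.97 and 7.80% of upper-layer and 0.169 and 0.166% of deep-layer neurons.

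The libraries were then compared with each other, which is what the labels ask: whether cells labelled Cyfip2 knockout carry other motor levels than cells labelled wild type. Over all cells, 0 of the 19 kinesins measured were called between the libraries, where 0.456% of all genes were called higher and 0.0998% lower. The counts were 0 of 14 in excitatory neurons (0.148% of genes higher and 0.0740% lower), 0 of 13 in GABAergic neurons (0.482 and 0.132%), 0 of 14 in nondividing progenitors (0.159 and 0.361%) and 0 of 26 in dividing progenitors (0.301 and 0.631%). No test stands behind these counts, because a second library of either label was not analysed here, so the spread between animals is unknown.

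Over all cells the ratios of knockout-labelled over wild type were small and most leaned the same way. They ran from -0.14 to 0.04 on the log2 scale with a median of -0.06, beside -0.02 over all genes. Their intervals lay below 0 for 12 of the 19 kinesins, as for 31.7% of all genes, and above 0 for 0, as for 17.3% of genes. Kif1b went from 298 to 270 CPM (log2 -0.14, interval -0.16 to -0.12) and Kif1a from 135 to 122 CPM (-0.14, interval -0.17 to -0.10). In dividing progenitors Kif1b was at 195 and 161 CPM (-0.27, interval -0.37 to -0.17). Kif21a leaned up in excitatory neurons, at 222 and 230 CPM (0.05, interval 0.01 to 0.08), where 14.7% of genes had an interval above 0. Kif26b was at 17.2 and 10.3 CPM in dividing progenitors (-0.73, interval -1.11 to -0.36), under the minimum level. It was called lower when doublets were kept, with stricter cell filters and without the minimum. With equal cluster weights its ratio was -0.47, under the 1.5-fold limit, and with finer clustering (resolution 2) no member was called in this class. The share of all genes called under these settings was not counted. Depth per cell was lower in the knockout-labelled library, with medians of 9567 and 7783 UMIs, and its part in these ratios was not tested. The makeup differed too, with excitatory neurons at 53.5 and 49.1% of cells and GABAergic neurons at 23.9 and 30.0%. Its part in the ratios over all cells was not tested. The median kinesin ratio was -0.056 in excitatory neurons, beside -0.013 over all genes, and -0.006 in GABAergic neurons, beside -0.014. It was -0.092 in nondividing progenitors, beside -0.032, and -0.077 in dividing progenitors, beside -0.030.

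**Figure D5:**
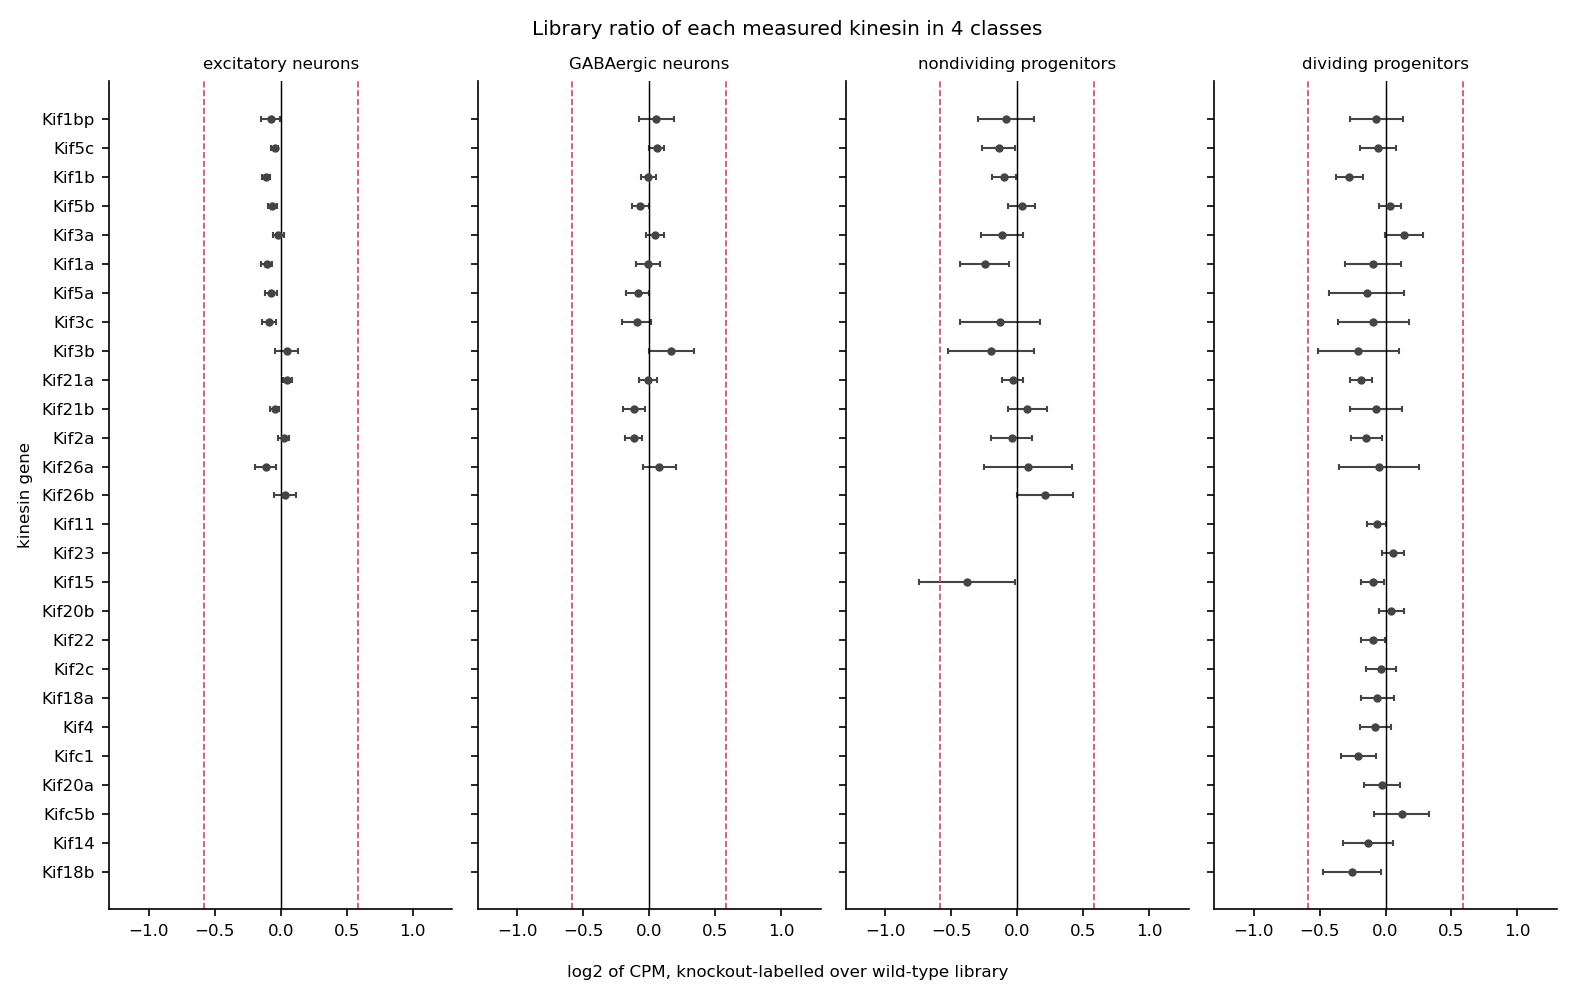
Log2 of knockout-labelled CPM divided by wild-type CPM for each kinesin measured in each of 4 broad classes (panels), with bars for 95% Poisson intervals and dashed lines at 1.5-fold. The points lie between -0.12 and 0.05 in excitatory neurons and between -0.38 and 0.21 in nondividing progenitors, the widest panel, and no point lies beyond either line.

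Of 14 finer classes with at least 100 cells in each library, 2 had a member called, both of them higher. The share of all genes called higher in these classes ran from 0.0582 to 5.74%. Kif26a was at 44.7 and 71.0 CPM in caudal or lateral eminence interneurons (log2 0.67, interval 0.34 to 1.00), where 1.12% of all genes were called higher. The difference was seen in cluster 7, at 54.9 and 86.9 CPM (0.66, interval 0.31 to 1.03), and not beyond counting error in cluster 22, at 23.6 and 26.8 CPM (0.19, interval -0.71 to 1.12). With equal weights for these clusters the ratio was 0.54, under the limit, so that call is not held under another mixture. Kif26a leaned up in cluster 6, at 42.2 and 61.4 CPM (0.54, interval 0.11 to 1.00), without being called. In medial eminence interneurons Kif26a was at 21.9 and 28.5 CPM (0.38, interval 0.08 to 0.70), not called either. With equal weights for the clusters of that class the Kif26a ratio was -0.03, so this lean is not held under another mixture. It leaned down, at 236 and 222 CPM in deep-layer and 95.4 and 83.8 CPM in striatal projection neurons. The other call was Kif5c in cluster 18, at 180 and 290 CPM (log2 0.69), an unnamed cluster with a median of 2341 UMIs per cell in which 5.74% of all genes were called higher.

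Partners of the motors were followed in lists chosen for their role. Of the 19 measured cargo adaptors and light chains, 13 were called higher and 1 lower in excitatory neurons than in nondividing progenitors in each library, where 22.8 and 22.9% of all genes were called higher and 23.8 and 22.7% lower. Klc1, a light chain of conventional kinesin, was at 68.7 and 78.3 CPM in nondividing progenitors and 232 and 219 CPM in excitatory neurons, and Kifap3, the accessory subunit of heterotrimeric kinesin, at 102 and 105 against 267 and 266 CPM. Arl8a, the lysosome adaptor, was at 142 and 150 against 277 and 274 CPM, while Fez1, a Kif5 adaptor, was near level at 315 and 303 against 338 and 318 CPM. Kifap3 and Klc1 thus stood beside Kif3c and Kif5a on the neuronal side.

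Dynein and dynactin, the machinery that walks the other way, showed a smaller contrast. In the wild-type library 10 of 26 members measured were called higher in excitatory neurons and 2 lower, and in the knockout-labelled library 11 of 25 and 3, beside the same 22.8 and 22.9% of all genes higher and 23.8 and 22.7% lower. The median log2 ratio was 0.37 and 0.39, beside -0.05 and -0.02 over all genes. Dynll1, a light chain, was at 612 and 723 against 999 and 1102 CPM, and Dync1i2 at 284 and 283 against 464 and 470 CPM. Dynlrb1 was at 302 and 320 against 405 CPM in both libraries, and Pafah1b1, the lissencephaly gene, at 259 and 245 against 328 and 324 CPM. All 20 spindle partners, with Prc1 (661 and 624 CPM), Cdca8 (574 and 591 CPM), Nusap1 (551 and 529 CPM) and Birc5 (522 and 534 CPM), were called higher in dividing progenitors than in excitatory neurons, where 23.1 and 21.7% of all genes were. Nusap1 and Birc5 are among the leading genes of a dividing cluster, so this direction too follows from how the class was made.

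Of the cilium and Hedgehog genes measured, 0 were called higher and 9 of 13 and 8 of 12 lower in excitatory neurons than in nondividing progenitors, where 23.8 and 22.7% of all genes were called lower and 22.8 and 22.9% higher. Ift74, a subunit of the train that heterotrimeric kinesin pulls in cilia, was at 112 and 106 against 22.8 and 22.9 CPM, while Ift20 was at 87.7 and 85.4 against 73.7 and 76.3 CPM. Ift27 was at 84 and 76.5 against 58.6 and 53.7 CPM and Ift81 at 46.7 and 48.8 against 38.8 and 39.6 CPM. Between the libraries 0 members of any of these lists were called, over all cells or in the 4 broad classes. Of all genes, only 0.0740 to 0.631% were called in either direction there, so 0 says little about the partners. Of the spindle partners, 0 were measured in excitatory neurons and 1 in GABAergic neurons.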

How the data were processed

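The deposited files hold UMI counts per gene and droplet barcode for all barcodes. Per the file headers the submitters used Cell Ranger 4, and their processing notes name the genome mm10. The annotation release and strand setting are not given in the sources. Per the labels' protocols 2 forebrains were pooled for each library.

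A barcode was a cell with at least 1000 UMIs, 500 genes and at most 10% mitochondrial UMIs, which gave 9086 and 12855 cells. Scrublet doublets were left out at 0.8% per 1000 cells, 660 (7.26%) and 1322 (10.3%). Scrublet's own cutoff marked 231 and 529. Cells were clustered with scanpy 1.11.5 and leidenalg 0.10.2 (2000 variable genes without Kif genes, 30 components, 15 neighbours, resolution 1), and the libraries were not aligned to each other. Clusters were named from marker lists by a rule revised after the clusters had been seen. A cluster mostly of 1 library (cluster 6, with 177 and 721 cells, or cluster 35, with 18 and 2) may be that library and not a type.

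Counts were summed per class and library and scaled to CPM, with exact Poisson intervals for ratios and exact binomial (Clopper-Pearson) intervals for shares at 95%. These cover counting error only. The ratio rule was run on simulated Poisson counts, the model its interval assumes, so that run cannot speak to the spread between libraries. The members are a matter of symbol, and the members, gene lists and classes were chosen with earlier results of these data known. All members could be named. Per-library values go to the highest 6 of each role, called members, the widest ranges and all paralogues, and of each partner list to the highest 4 over all cells. Promoters come from RefSeq (GRCm38.p6). Columns of samples left unused numbered 0. Alternatives changed doublet removal, cell filters, resolution, the minimum level, free RNA (5% subtracted) and scaling.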

Additional observations from a re-analysis of the deposited data

How the results depend on the processing

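Of 127 alternative values, 82 kept the direction and side of the limit or moved less than counting error, 41 moved and 4 lost the call, and 0 changed sign. No paired analysis was possible because each label has 1 library. Kinesins called between libraries went from 0 to 2 in GABAergic neurons without a CPM minimum (Kif26b, log2 0.79, and Kif6, 1.89), to 1 in nondividing progenitors with at least 2000 UMIs per cell (Kif4, -0.65) and 1 without the minimum (Kif7, -0.81). In dividing progenitors 1 was called with doublets kept, with at most 5% mitochondrial UMIs and with at least 2000 UMIs (Kif26b, -0.78, -0.77 and -0.80), and 2 without the minimum (Kif26b, -0.73, and Kif1c, -1.14). The share of all genes called under these settings was not counted, so these calls cannot be set against a background. The Kif26a call in caudal or lateral eminence interneurons was lost with doublets kept (0.52), at most 5% mitochondrial UMIs (0.51), at least 2000 UMIs (0.52) and equal cluster weights (0.54, chosen after seeing the data). With free RNA subtracted the median log2 ratio of division motors, unbounded ratios included, was 7.67 and 8.01.

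Some shares within families moved beyond their counting intervals. Kif5c in wild-type excitatory neurons was 48.1% in the report, 49.0% at the 5% mitochondrial limit and 48.7% at 2000 UMIs. Kif5b in dividing progenitors, 67.2% (65.6 to 68.8) and 68.8% (67.2 to 70.3) in the report, was 61.4 and 60.6% with doublets kept, 64.4, 64.0 and 64.9% in the wild-type library at the 5% limit, at 2000 UMIs and at resolution 2, and 69.6 and 71.1% with free RNA subtracted. Kif26a held 55.3 and 53.9% of its pair in excitatory neurons with doublets kept, and Kif21b 46.7% in the knockout-labelled library with doublets kept and 48.3% at the 5% limit.

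The summed kinesin level of excitatory neurons was 2361.3 and 2270.2 CPM at the 5% limit, 2397.6 CPM in the wild-type library at resolution 2, and 2408.4 and 2330.7 CPM with free RNA subtracted. In dividing progenitors it was 3034.1 and 2983.1 CPM with doublets kept, 3083.9 and 3004.4 CPM at the 5% limit, 3118.4 and 3065.1 CPM at 2000 UMIs, 3023.5 and 2951.4 CPM at resolution 2 and 3407.0 and 3239.7 CPM with free RNA subtracted. Thinned to 2000 UMIs, Kif5c was in 48.6 and 46.9% of excitatory neurons and Kif11 in 46.3 and 46.1% of dividing progenitors. Apart from those made by fewer cells, deeper thinning or subtraction, the cause of these moves was not tested. Depth limits statements on the classes of under 50 cells.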
